A study of Homo sapiens with 12 samples.

Results

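The middle stretch of cholesterol synthesis, from squalene to the sterol that has lost its methyl group at carbon 14, is run by 6 genes, which were chosen by name: FDFT1, SQLE, LSS, CYP51A1, TM7SF2 and LBR. They are 6 of the 20090 protein-coding genes examined. HCC70 cells, a triple-negative breast cancer line grown in serum-containing RPMI medium, had been profiled by chromatin immunoprecipitation sequencing. Cells received vehicle or the RORγ antagonist XY018 for 24 h, at 5 µM according to the labels and at a lower dose according to the methods of the study. Antibodies against SREBP2, RORγ and acetylated lysine 27 of histone H3 (H3K27ac) were each applied to chromatin of both treatments, so that every one of the 6 groups held 1 library and no difference has a replicate check. For each gene, the called regions (peaks) of the 6 immunoprecipitated libraries were read in a promoter window, which ran from 1000 bp before to 100 bp after each annotated start of a transcript, and from 10 kb upstream to 10 kb downstream of the gene.

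Cells make cholesterol from acetyl-CoA through the mevalonate pathway, which ends in the isoprenoid farnesyl diphosphate, and then through a series of sterols. SREBP2 is a transcription factor held in the membrane of the endoplasmic reticulum while sterols are plentiful and released by cleavage when they run low, after which it binds the promoters of cholesterol synthesis genes. RORγ is a nuclear receptor that can bind sterol intermediates of this same pathway as ligands, and H3K27ac marks active promoters and enhancers. FDFT1 (squalene synthase) joins 2 farnesyl diphosphate molecules into squalene. SQLE (squalene epoxidase), a rate-controlling oxygenase, and LSS (lanosterol synthase) then epoxidize squalene and fold it into lanosterol, the first sterol. CYP51A1, a cytochrome P450, removes the methyl group at carbon 14, and TM7SF2 and LBR both reduce the double bond that this leaves. LBR is also the lamin B receptor, a protein of the inner nuclear membrane that tethers heterochromatin.

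The DNA at the sites that the results turn on is given first, in the orientation of the gene and on hg19 (read from the GRCh37 reference), for LSS, CYP51A1, TM7SF2 and LBR. The LSS stretch is the gap shared by the 4 lists in which the promoter was called as separate regions. The others run 60 bp to either side of the SREBP2 vehicle summit, the highest point of the region, at the CYP51A1 and TM7SF2 promoters and at the strongest SREBP2 site upstream of LBR. Capitals mark letters of the searched motifs, which here are GC boxes (GGGCGG, or CCGCCC where it lies on the other strand) and a CCAAT box.
LSS promoter gap, chr21:47648965-47649050: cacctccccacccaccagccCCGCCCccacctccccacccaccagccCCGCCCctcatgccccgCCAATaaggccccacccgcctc
CYP51A1 promoter summit, chr7:91763240-91763360: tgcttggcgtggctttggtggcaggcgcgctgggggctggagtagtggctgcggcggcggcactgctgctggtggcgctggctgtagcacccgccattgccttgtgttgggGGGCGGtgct
TM7SF2 promoter summit, chr11:64879874-64879994: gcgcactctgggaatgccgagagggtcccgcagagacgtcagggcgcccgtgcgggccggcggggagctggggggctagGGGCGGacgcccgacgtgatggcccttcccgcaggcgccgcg
LBR upstream summit, chr1:225619108-225619228: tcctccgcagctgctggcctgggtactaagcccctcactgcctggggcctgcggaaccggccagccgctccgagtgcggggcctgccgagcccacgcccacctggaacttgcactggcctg
None of these stretches held the sterol regulatory element searched for, and the LBR upstream stretch held none of the searched motifs. The LSS gap was 76.7% G and C and lay entirely outside annotated untranslated exons. Its GC boxes began at positions 21 and 48 and its CCAAT box at position 65, which is at −298 bp from the main transcript start. The TM7SF2 stretch held 1 GC box and lay within the gene, 590 bp past its start.

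Around the summit of the strongest SREBP2 promoter region with vehicle, motif letters were then counted on both strands within 100 bp, in the 6 genes and in all 14184 protein-coding promoters with such a region. GC boxes were found at 5 genes, all but SQLE, against 69.9% of all promoters. A CCAAT box (CCAAT) was found at SQLE, against 8.33% of all promoters. The sterol regulatory element (TCACNCCAC, 0.67% of all promoters), the E-box (CACGTG, 4.75%) and the ROR core site (AGGTCA, 5.36%) were found at 0 of the 6. Letters outside these exact spellings were not searched.

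Depth, recovered from the peak values as tags per kb, was between 3.65 and 6.16 in the 6 libraries, and differed by a factor of 0.904 to 1.07 between the treatments of an antibody. The most common local background was 1.18 times as high with XY018 as with vehicle for SREBP2, and SREBP2 ratios scaled by it are lower than those scaled by depth (median of the 6 genes 0.571 against 0.632). The HCC70 label was read against H3K27ac at promoters with vehicle. Of 8 basal markers 6 were called (not KRT14 or KRT6B), and of 8 luminal or hormone receptor genes 5 were called, ESR1 among them. Of 7 genes of other tumour cells 3 were called, and a further planned gene of that list was not in the annotation. Of all protein-coding genes 66.8% were called in the same library, so the counts are not read as a sign of cell identity. A called promoter is not a level of expression.

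All 6 genes held SREBP2 and RORγ in their promoter windows in vehicle-treated cells, and all but CYP51A1 did so with XY018. Over all protein-coding genes, an SREBP2 promoter region was called for 70.6% with vehicle and 62.7% with XY018, and a RORγ promoter region for 62.7% and 61.5%. H3K27ac was called at all 6 promoters under both treatments, against 66.8% of all genes with vehicle and 68% with XY018. Of 15 other cholesterol synthesis genes, SREBP2 was called at 12 under both treatments and H3K27ac at 14 under both. RORγ was called at 10 of the 15 with vehicle and at 8 with XY018, HMGCS1 and IDI1 being the genes that differed. The CYP51A1 call turned on the edge of the window. Its XY018 regions, on chromosome 7 at 91763204 to 91763546 for SREBP2 and at 91763207 to 91763540 for RORγ, lay inside the gene just past the window and overlapped the vehicle regions. With windows of 5 kb to either side, all 6 genes were called in every library.

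Binding at the promoters was compared as fragments, the number of sequenced DNA fragments stacked at the summit, which the deposited fold and −log10 p of each region yield together under the Poisson model of the peak caller. Vehicle and XY018 regions that overlapped were paired, and the ratio of XY018 to vehicle was taken after dividing the fragments by the genome-wide background of each library. Intervals are 95% and cover counting error only.

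**Figure D1:**
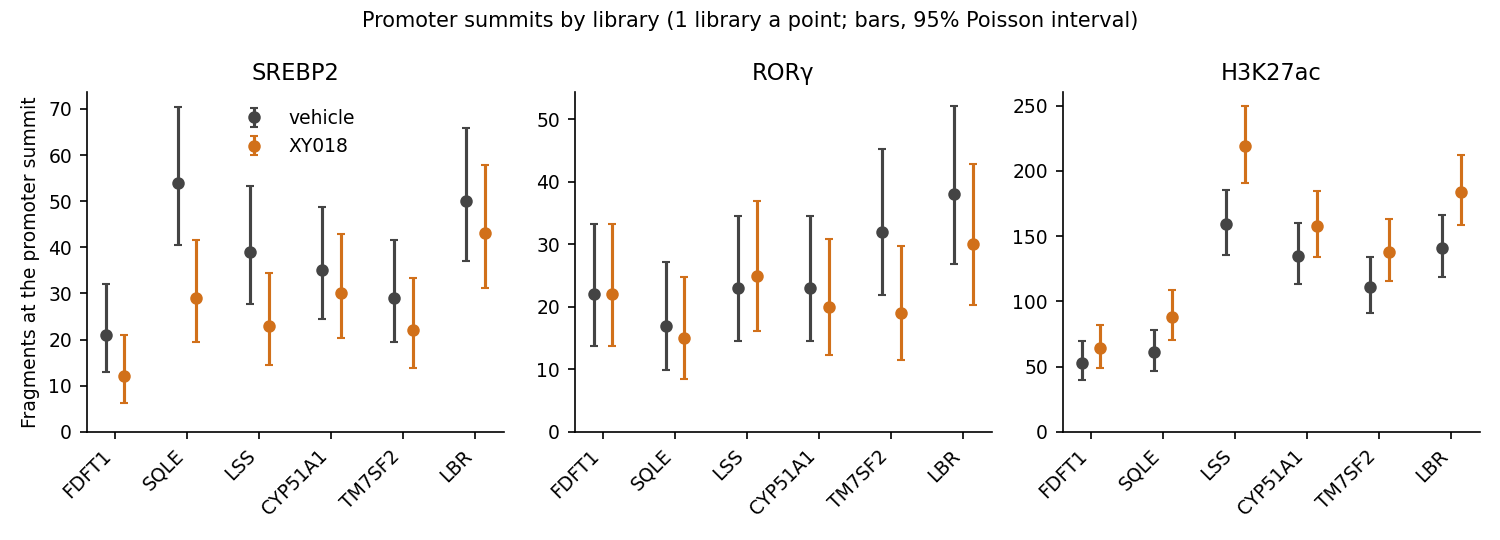
Fragments at the summit of the paired promoter regions (y axis, linear from 0) for the 6 genes (x axis, in pathway order), with 1 panel per antibody. Grey points are the vehicle and orange points the XY018 library, and bars are exact 95% Poisson intervals. For FDFT1 the SREBP2 and RORγ points are from the upstream start and the H3K27ac points from the main start. For TM7SF2 the SREBP2 and RORγ points are from regions outside the window of the main start. The SREBP2 points sit lower with XY018 at all 6 genes, and the H3K27ac points sit higher at all 6, from 53 to 64 at FDFT1 up to 159 to 219 at LSS.

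FDFT1, on chromosome 8 from 11653082 to 11696904, had 5 separate transcript start windows and the fewest SREBP2 fragments of the 6 genes. At an upstream start, the SREBP2 summits lay at −7.65 kb (vehicle) and −8 kb (XY018) from the main one, 346 bp apart. SREBP2 gave 21 fragments with vehicle and 12 with XY018 there, a ratio of 0.484 (0.217 to 1.03). RORγ gave 22 fragments there in both libraries, and H3K27ac 11 in both. At the main start, the SREBP2 summits lay 273 bp (vehicle) and 254 bp (XY018) inside an intron, with 21 and 11 fragments. Their ratio was 0.443 (0.193 to 0.962). RORγ at the main start gave 10 fragments with vehicle and 8 with XY018, and H3K27ac 53 and 64, a ratio of 1.32 (0.905 to 1.94). FDFT1 carried its strongest RORγ signal at the upstream start, where acetylation was low, and its strongest acetylation at the main start.

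SQLE, on chromosome 8 from 126010739 to 126034525, had the highest SREBP2 count of the 6 genes with vehicle and the lowest ratio of the pairs taken, 1 a gene. SREBP2 gave 54 fragments with vehicle and 29 with XY018, a ratio of 0.455 (0.279 to 0.727), with summits at −228 and −283 bp from the start. RORγ gave 17 fragments with vehicle and 15 with XY018, a ratio of 0.976 (0.454 to 2.08). H3K27ac gave 61 fragments with vehicle and 88 with XY018, a ratio of 1.58 (1.13 to 2.23). The 2 intervals, for SREBP2 and H3K27ac, thus lay on opposite sides of 1. So did the medians over all paired promoters, 0.621 for SREBP2 and 1.27 for H3K27ac. Each SQLE interval included the median of its antibody, so nothing particular to SQLE is read from this. The regions also covered the promoter of the divergent transcript SQLE-DT, and the 2 transcripts cannot be told apart in these data.

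LSS, on chromosome 21 from 47608055 to 47648738 on the minus strand, shares its promoter with the divergent transcript MCM3AP-AS1. SREBP2 gave 39 fragments with vehicle and 23 with XY018, a ratio of 0.499 (0.285 to 0.857). RORγ gave 23 fragments with vehicle and 25 with XY018, a ratio of 1.20 (0.655 to 2.22). H3K27ac gave 159 fragments with vehicle and 219 with XY018, a ratio of 1.51 (1.22 to 1.86), and its vehicle fold of 73.7 was higher than at 95.2% of called promoters. The SREBP2 ratio depended on the background that was used. The local background at the LSS summit was 2.92 with vehicle and 1.21 with XY018, so that the deposited fold, which uses it, was 10.2 with vehicle and 10.8 with XY018, a ratio of 1.06. The strongest summits lay between −783 and −671 bp from the LSS start, on the MCM3AP-AS1 side of the gap whose sequence is given above. On the LSS side, RORγ gave 21 fragments with vehicle and 17 with XY018, at 198 and 186 bp inside the gene, and a second SREBP2 summit with XY018 gave 23 fragments at 73 bp inside. The gap itself, chromosome 21 from 47648965 to 47649050, was free of regions in the RORγ lists of both treatments, in the SREBP2 list of XY018 and in the H3K27ac list of vehicle, and was covered in the other 2 lists.

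CYP51A1, on chromosome 7 from 91714301 to 91764117 on the minus strand, carried its paired promoter summits inside an intron, between 399 and 491 bp past the main start. A further H3K27ac region with XY018, of 9 fragments, lay at an internal start window 9483 bp past the main start. SREBP2 gave 35 fragments with vehicle and 30 with XY018, a ratio of 0.725 (0.430 to 1.22). The deposited fold differed more, at 12.4 and 5.42, a ratio of 0.435, since the local background was 1.89 with vehicle and 4.72 with XY018. RORγ gave 23 fragments with vehicle and 20 with XY018, a ratio of 0.962 (0.501 to 1.83), at summits 3 bp apart. H3K27ac gave 135 fragments with vehicle and 158 with XY018, a ratio of 1.28 (1.01 to 1.63), the lowest of the 6. The promoter window of the antisense transcript CYP51A1-AS1 shares these regions.

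TM7SF2, a short gene on chromosome 11 from 64879317 to 64883856, also carried its paired promoter summits inside the gene. Its paired SREBP2 and RORγ regions lay outside the window of the main start and were counted through another annotated start. SREBP2 gave 29 fragments with vehicle, in an intron 590 bp past the start, and 22 with XY018, in a coding exon 647 bp past it, a ratio of 0.642 (0.352 to 1.16). The deposited fold was 10.4 in both libraries. RORγ gave 32 fragments with vehicle and 19 with XY018, and the ratio of 0.657 (0.352 to 1.19) was the lowest RORγ ratio of the 6 genes. H3K27ac gave 111 fragments with vehicle and 138 with XY018, a ratio of 1.36 (1.05 to 1.76). Here the deposited fold, 51.6 and 53.2, had a ratio of 1.03, beside a local background of 1.17 with vehicle and 1.61 with XY018. A weaker SREBP2 site lay upstream of the gene, in the window of the main start, with summits at −333 bp (vehicle) and −305 bp (XY018) from that start. It gave 16 fragments with vehicle and 12 with XY018, a ratio of 0.635 (0.274 to 1.43). No RORγ region was called at that site in either library.

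LBR, on chromosome 1 from 225589204 to 225616627 on the minus strand, gave more SREBP2 fragments than the other sterol reductase. SREBP2 gave 50 fragments with vehicle and 43 with XY018, a ratio of 0.728 (0.473 to 1.12), the highest SREBP2 ratio of the 6 genes. Its SREBP2 fold was higher than at 89.2% of called promoters with vehicle and at 94.1% with XY018. RORγ gave 38 fragments with vehicle and 30 with XY018, a ratio of 0.873 (0.522 to 1.45). H3K27ac gave 141 fragments with vehicle and 184 with XY018, a ratio of 1.43 (1.14 to 1.79). In vehicle-treated cells the SREBP2 and RORγ summits, 267 and 270 bp past the main start, were 3 bp apart.

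Set side by side, the SREBP2 ratio was below 1 at 6 of 6 genes, with a median of 0.571, whereas it was below 1 at 98.1% of the 12564 promoters paired over all genes, with a median of 0.621. The share is thus close to the background, and nothing particular to the 6 genes is read from it. Among the other cholesterol synthesis genes, SREBP2 was below 1 at 12 of 12, with a median of 0.601 and a range from 0.385 at MSMO1 (C4-methylsterol oxidase) to 0.987 at EBP (sterol isomerase). The intervals of the 6 genes overlapped one another, and those of SQLE and LSS excluded 1, also when scaled by depth (0.309 to 0.805 and 0.315 to 0.949). That of FDFT1 at its main start excluded 1 on the background scale and included it when scaled by depth (0.214 to 1.07). On the deposited fold the ratio stayed below 1 at 4 of the 6 genes, LSS and TM7SF2 being the exceptions.

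For RORγ, the ratio was below 1 at 4 of 6 genes, with a median of 0.969 and every interval including 1. Over all 11571 paired promoters it was below 1 at 54.8%, with a median of 0.968. The other cholesterol synthesis genes had a median of 0.997 and ran from 0.614 at ACAT2, a thiolase at the start of the pathway, to 1.66 at MVK (mevalonate kinase), from 5 to 9 fragments with XY018. Summits of the paired regions held 15 to 38 fragments, and 10 and 8 at the main start of FDFT1, where the ratio was 0.885 (0.303 to 2.49). Changes within these intervals were not detectable at this depth.

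For H3K27ac, the ratio was above 1 at 6 of 6 genes, between 1.28 and 1.58, with a median of 1.40. The interval lay above 1 at SQLE, LSS, CYP51A1, TM7SF2 and LBR. Over all 13052 paired promoters the ratio was above 1 at 80.4%, with a median of 1.27, so the direction at the 6 genes is that of most promoters. Among the other cholesterol synthesis genes the ratio was above 1 at 7 and below 1 at 7 of 14, with a median of 1.05. The highest was 1.49 at MVK. The lowest of the 6 genes, CYP51A1, stood above 12 of those 14 genes, below DHCR7 at 1.33 and MVK. On the deposited fold the lowest of the 6 was TM7SF2 at 1.03, which stood above 9 of the 14, and the highest of the 14, at 1.76, exceeded SQLE at 1.66. The difference between the 6 genes and the rest of the pathway was not tested, because 1 library per group gives no spread between cultures.

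**Figure D2:**
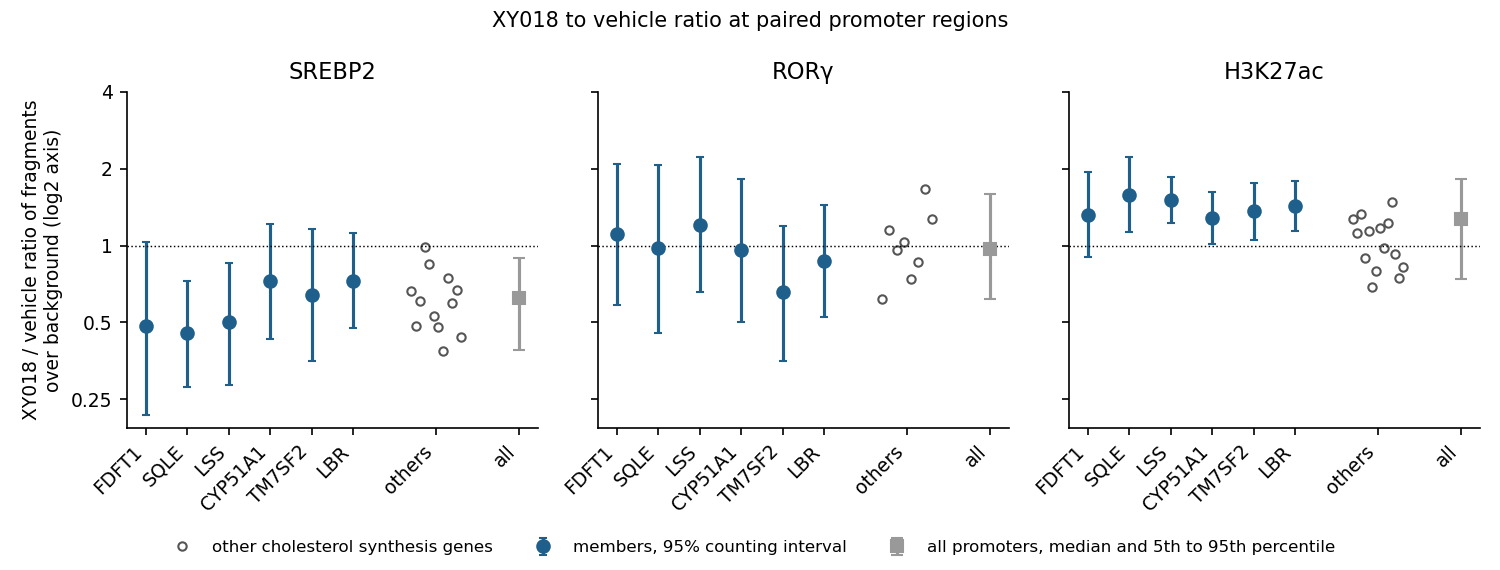
XY018 to vehicle ratio of fragments over background at paired promoter regions (y axis, log2 scale), with 1 panel per antibody. Filled points are the 6 genes with 95% counting intervals, open points the other cholesterol synthesis genes, and the square is the median of all protein-coding promoters with its 5th to 95th percentile. The FDFT1 points are from the upstream start for SREBP2 and RORγ and from the main start for H3K27ac. The TM7SF2 points for SREBP2 and RORγ are from regions outside the window of the main start. The 6 genes lie below 1 for SREBP2, around 1 for RORγ and between 1.28 and 1.58 for H3K27ac, where the open points reach from below 1 up to 1.49.

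The summits of the different antibodies lay close together at these promoters. The distance from the SREBP2 summit to the nearest RORγ summit in an overlapping region ran from 3 bp at LBR to 197 bp at SQLE with vehicle, and from 4 bp at CYP51A1 to 291 bp at FDFT1 with XY018. Over all paired promoters with a RORγ region, the median was 54 bp with vehicle and 51 bp with XY018. The nearest H3K27ac summit was 2 bp away at TM7SF2 and 130 bp away at FDFT1 with vehicle, and 1 to 221 bp away with XY018, against medians of 49 and 51 bp. For FDFT1 the distances were taken at the upstream start, where the summits lay outside the gene. At its main start, the SREBP2 and RORγ summits with vehicle both lay 273 bp past the start. TM7SF2, LBR and CYP51A1 had their summits inside the gene, SQLE and LSS upstream of it.

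In the wider windows, the 6 genes together held 38 SREBP2 regions in vehicle-treated cells and 22 after XY018. RORγ had 39 and 23, and H3K27ac 39 and 44. For RORγ this difference rested on weak regions, since at q of at most 1e-05 the ratio of XY018 to vehicle region numbers was 1. LSS alone held 17 SREBP2 and 17 RORγ regions with vehicle, against 8 and 9 with XY018, spread along the gene and past its 3′ end. Over all protein-coding genes, the median gene had 4 SREBP2 regions in the vehicle and 2 in the XY018 library, 4 and 3 RORγ regions, and 3 H3K27ac regions in both libraries. From vehicle to XY018, the number of regions in the whole list changed by −40.7% for SREBP2, −22.3% for RORγ and 10.8% for H3K27ac. Joined across libraries, the regions formed 81 sites, of which 13 were called in all 6 lists and 38 in 1 list only. Of the 13, 8 were in promoter windows of the genes.

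**Figure D3:**
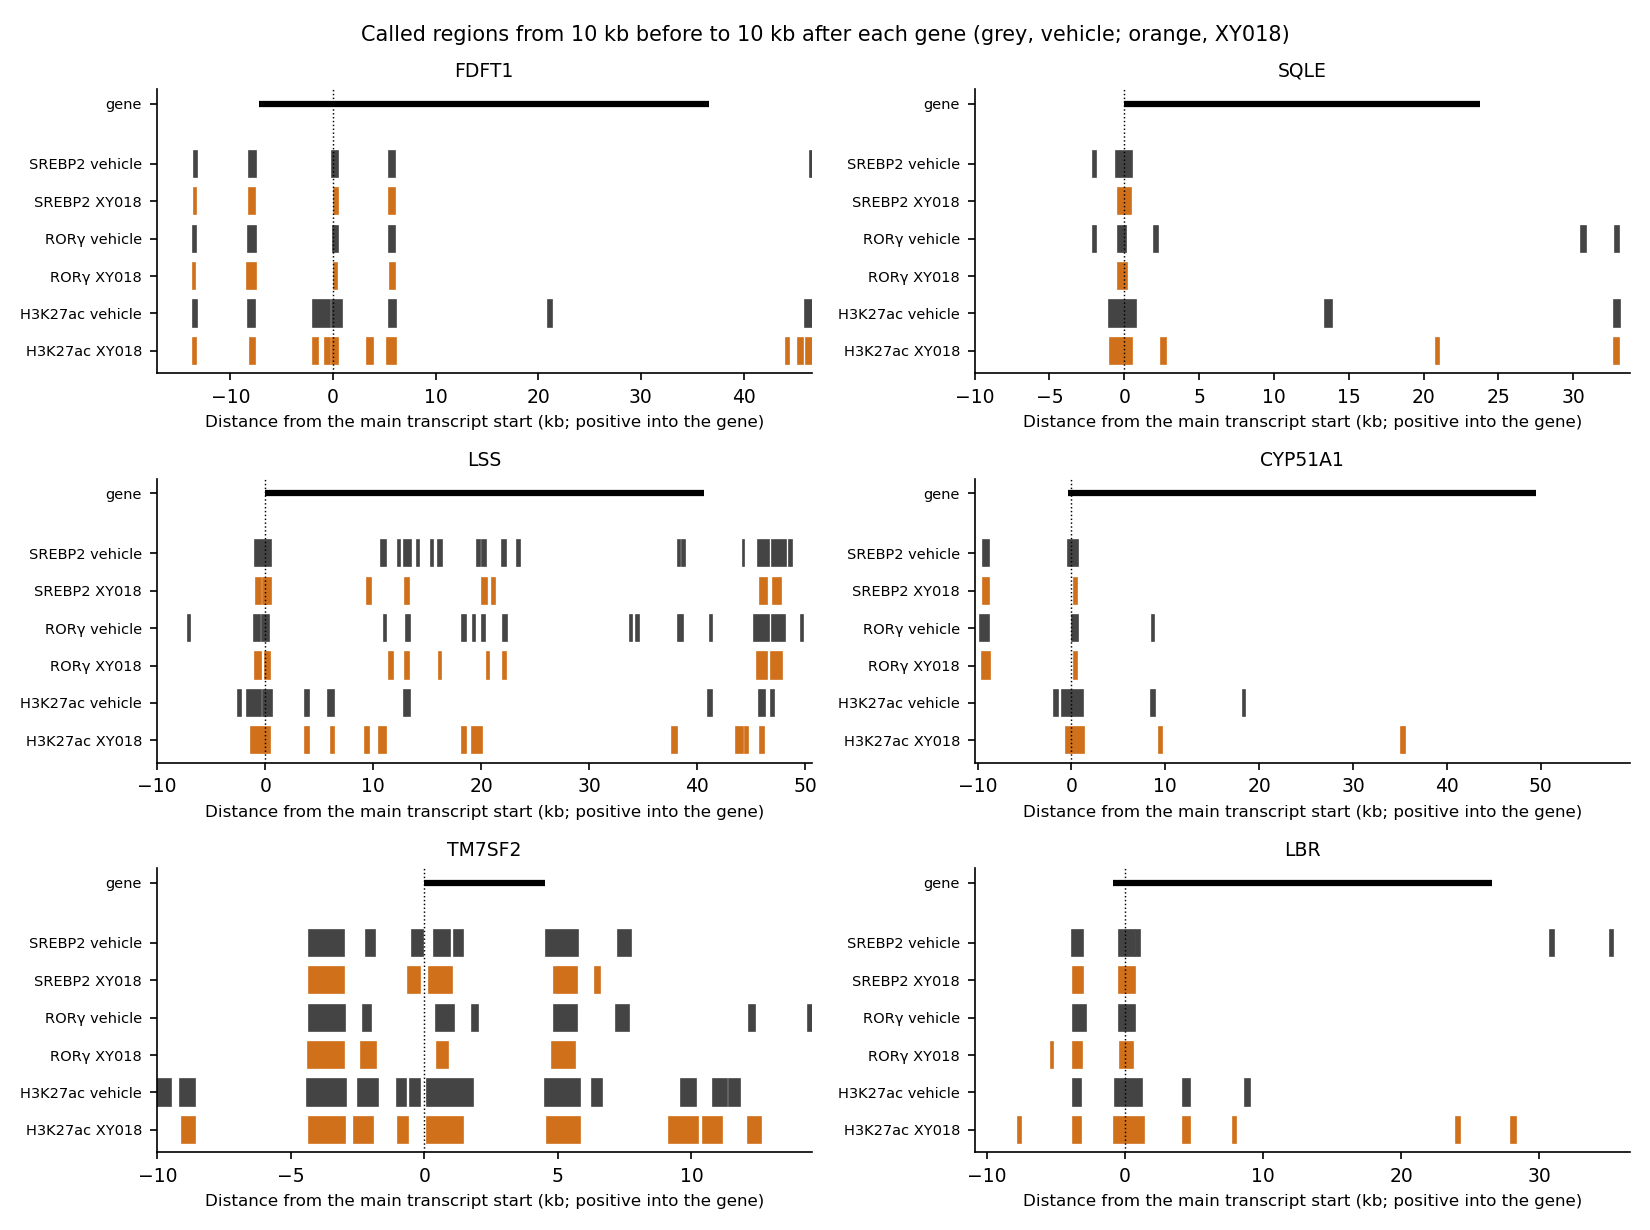
Called regions from 10 kb before to 10 kb after each gene, with the distance from the main transcript start in kb on the x axis (positive into the gene) and 1 row per library on the y axis. The black bar is the gene, grey blocks are vehicle and orange blocks XY018 regions, drawn to scale in position. LSS shows 17 SREBP2 regions with vehicle and 8 with XY018, whereas the promoter of each gene is covered in all 6 lists when regions just past the start are included.

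Several sites away from the main promoters also carried both factors. Upstream of LBR, on chromosome 1 from 225618525 to 225619540, SREBP2 gave 45 fragments with vehicle and 40 with XY018, a ratio of 0.752 (0.479 to 1.18). RORγ there gave 34 and 45 fragments, a ratio of 1.46 (0.917 to 2.36), against 38 and 30 at the promoter. H3K27ac was low at this site, with 26 and 20 fragments against 141 and 184 at the promoter.

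Upstream of CYP51A1, on chromosome 7 from 91772511 to 91773493, both factors were found without an H3K27ac region in either list. The H3K27ac lists are a selection of called peaks, so a missing region is not read as a lack of acetylation. SREBP2 gave 41 fragments with vehicle and 28 with XY018, a ratio of 0.578 (0.344 to 0.958). Scaled by depth, the SREBP2 ratio was 0.641 and its interval included 1 (0.381 to 1.06). RORγ gave 40 fragments with vehicle and 47 with XY018, a ratio of 1.30 (0.834 to 2.03), and its deposited folds of 19.7 and 28.0 exceeded the 9.13 and 10.4 of the promoter region. The site lies in the promoter window of the transcript ENSG00000285772.

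Past the 3′ end of LSS, on chromosome 21 from 47602001 to 47603405, SREBP2 gave 33 fragments with vehicle and 29 with XY018, a ratio of 0.744 (0.436 to 1.26), and RORγ gave 37 and 34, a ratio of 1.02 (0.619 to 1.66). H3K27ac gave 16 and 11 fragments there. Inside LSS, in an intron 13.1 kb past the start, SREBP2 gave 26 fragments with vehicle and 14 with XY018, a ratio of 0.456 (0.220 to 0.905), beside 9 and 16 RORγ fragments. Scaled by depth, the SREBP2 ratio was 0.505 and its interval included 1 (0.244 to 1.003). Inside FDFT1, at an internal start window on chromosome 8 from 11665563 to 11666380, H3K27ac gave 17 fragments with vehicle and 35 with XY018, a ratio of 2.26 (1.23 to 4.29). These H3K27ac summits lay at different positions, 5633 bp (vehicle) and 5899 bp (XY018) past the main start. SREBP2 at that site gave 12 fragments with vehicle and 13 with XY018, a ratio of 0.917 (0.386 to 2.20), and RORγ 16 and 11.

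Whether a region was called again with XY018 went with its strength. Of the 38 vehicle SREBP2 regions at the 6 genes, 18 (47.4%, exact binomial interval 31.0 to 64.2%) overlapped an XY018 region, against 39.8% of all vehicle SREBP2 regions. The kept regions had a median of 28.5 fragments with vehicle and the others a median of 10, with none above 19. For RORγ, 19 of 39 (48.7%, 32.4 to 65.2%) were kept, against 36.4% of all, with medians of 22 and 6 fragments. For H3K27ac, 25 of 39 (64.1%, 47.2 to 78.8%) were kept, against 69.3%, with medians of 18 and 11. Among vehicle regions of at least 20 fragments, a limit chosen after the values were seen, 14 of 14 SREBP2 and 11 of 11 RORγ regions were kept, against 95.2% and 99.9% of such regions in the whole lists. Each kept share of the 6 genes had an interval that included the share of its whole list. These intervals treat regions as independent, although LSS alone held 17 of the SREBP2 and 17 of the RORγ regions with vehicle.

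**Figure D4:**
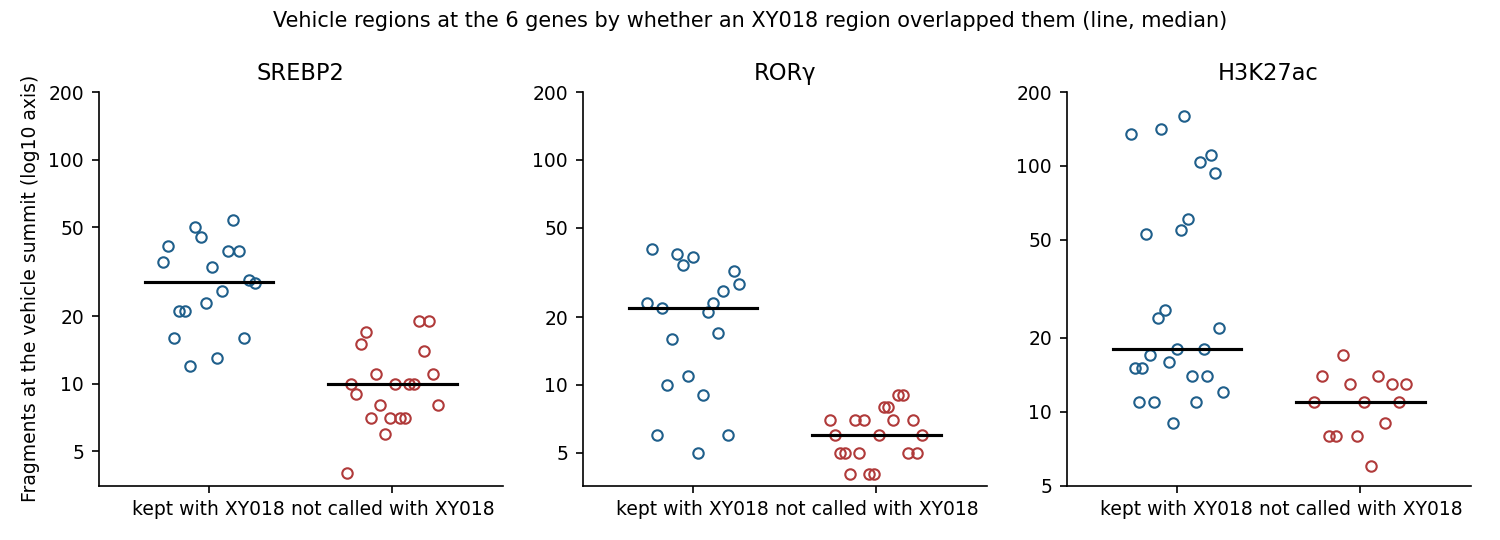
Fragments at the summit of vehicle regions (y axis, log10 scale) in the windows of the 6 genes, split by whether an XY018 region of the same antibody overlapped them, with 1 panel per antibody. Each circle is a region and the line is the median. The regions not called with XY018 reach at most 19 fragments for SREBP2, 9 for RORγ and 17 for H3K27ac.

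Shared occupancy by both factors was common. With vehicle, 24 of 38 SREBP2 regions at the 6 genes (63.2%, 46.0 to 78.2%) overlapped a RORγ region, against 49% of all SREBP2 regions. With XY018, 18 of 22 did (81.8%, 59.7 to 94.8%), against 64%. Each interval included the share of its whole list, and again treats regions of the same gene as independent. H3K27ac regions overlapped 20 of the 38 SREBP2 regions with vehicle (52.6%, 35.8 to 69.0%), against 27.3% of all SREBP2 regions, and 16 of the 22 with XY018 (72.7%, 49.8 to 89.3%), against 36.6%. The windows of the 6 genes covered each whole gene with 10 kb to either side, and the whole lists were not limited to genes. The cause of the higher H3K27ac shares at the 6 genes was not tested.

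Finally, genes were matched to the cholesterol synthesis gene outside the 6 whose log2 folds over the 6 libraries were nearest, by Euclidean distance with 0 for a promoter not called. TM7SF2 was nearest to DHCR7 (distance 0.92) and LSS also to DHCR7 (1.18), the reductase that makes cholesterol from its last precursor. FDFT1 was nearest to EBP (1.27) and SQLE to MVK (1.38). CYP51A1 was nearest to ACAT2, but at a distance of 3.32, with 0 entered for its 2 promoter calls missing with XY018. The median distance of a gene to the 15 others ran from 3.17 at SQLE to 5.02 at CYP51A1.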

How the data were processed

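Samples were grouped by the antibody and treatment given in their labels. The 6 immunoprecipitated libraries were compared and the 6 input libraries entered only through the authors' peak calling. Per the labels, Bowtie2, MACS2 2.1.0 and bedtools were used on hg19, whereas the methods of the study name another aligner. The authors called peaks library by library. The deposited values were the fold (a ratio of summit pileup plus 1 to local background plus 1) and the −log10 p and −log10 q of each peak. Peak numbers in the deposited H3K27ac lists have gaps, so these lists are a selection, by a rule not given in the sources used here.

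Regions on chromosomes 1 to 22 and X were used, with GENCODE 44 lifted to GRCh37. Fold and −log10 p were inverted to whole fragments and local background, within 5% of a step in −log10 p, for at least 99.9991% of the regions of each list. The inversion was checked on simulated data. The most common background served as the genome-wide one, and divided by the smallest region width it gave depth in tags per kb. Regions were shared from 1 bp of overlap. At promoters the overlapping pair with the highest summed fragments over background was taken for each gene and antibody. For FDFT1 this gave the upstream start for SREBP2 and RORγ and the main start for H3K27ac. At other sites, the highest fragment number of each library among the regions joined there was used, so summits can differ in position. Where regions tied for the strongest in the motif search, as at FDFT1, the summit nearer the main start was used. Fragments had exact Poisson, ratios exact conditional binomial and shares Clopper-Pearson intervals, for counting error only. No test was run. The 6 genes, the 15 other pathway genes, the markers and the motifs were chosen with earlier results of these data known. All 6 genes were named. Of the 15 others, those whose promoter call differed, the lowest and highest ratio of each antibody and the nearest gene to each of the 6 were named, except for items that are not reported here. Python 3.11.15, numpy 2.4.6, pandas 2.3.3, scipy 1.17.1 and matplotlib 3.10.9 were used.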

Additional observations from a re-analysis of the deposited data

How the results depend on the processing

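No paired analysis was possible because each group held 1 library. The median promoter ratio of the 6 genes kept its side of 1 for SREBP2 and H3K27ac under every scaling tried (tags per kb, unscaled fragments, the deposited fold, the strongest region of each library and, added after seeing the data, the main transcript start only). For RORγ the median was 1.11 on the deposited fold. The SREBP2 ratio of LSS crossed 1 on the deposited fold, at 1.06, and the H3K27ac ratio of TM7SF2 became 1.03 there, both with a local background that differed between the libraries. At q of at most 1e-05 the number of RORγ regions at the 6 genes was the same in both libraries, a ratio of 1. When summits had to lie within 100 bp, the kept share was 30.8% for RORγ and 43.6% for H3K27ac, and the share of SREBP2 regions with RORγ was 39.5% with vehicle and 50% with XY018. The whole-list shares given above are for overlap of at least 1 bp and cannot be set beside these. With 50 bp to either side of the summit, 0 genes held a CCAAT box and 2 a GC box, and with 250 bp 2 held a CCAAT box and 1, FDFT1, a ROR core site. The promoter call of CYP51A1 with XY018 was gained only with the 5 kb window. When the summit had to lie in the window, CYP51A1 and LBR lost their SREBP2 and RORγ calls (and CYP51A1 in both treatments and LBR with vehicle those of H3K27ac), and with the main transcript start only TM7SF2 lost its RORγ calls. Depth limits both factors, whose paired promoter summits held 12 to 54 (SREBP2) and 15 to 38 (RORγ) fragments.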

Other observations

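The window of TM7SF2 also held promoters of neighbouring genes. At a site past the 3′ end of TM7SF2 that overlaps the promoter window of ZNHIT2, on chromosome 11 from 64883857 to 64885180, SREBP2 gave 28 fragments with vehicle and 13 with XY018, a ratio of 0.393 (0.187 to 0.784), and RORγ gave 28 and 10, a ratio of 0.395 (0.171 to 0.838). The SREBP2 summits lay 5350 and 4991 bp past the TM7SF2 start, and the RORγ region with XY018 did not reach the ZNHIT2 window. H3K27ac gave 94 and 103 fragments there. It was the only site called in all 6 lists at the 6 genes where the RORγ interval lay below 1. At VPS51, on chromosome 11 from 64874942 to 64876399, SREBP2 gave 39 and 28 fragments, a ratio of 0.608 (0.360 to 1.01), RORγ 26 and 30, a ratio of 1.28 (0.729 to 2.25), and H3K27ac 104 and 129. Upstream of FDFT1, at the SUB1P1 pseudogene on chromosome 8 from 11646599 to 11646977, SREBP2 gave 16 and 8 fragments, RORγ 6 and 4, and H3K27ac 15 in both libraries. These neighbours were named because their promoter windows share regions with the windows of the 6 genes, and no explanation was tested.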
